A study of Mus musculus with 6 samples.

Results

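The hormone and hormone-associated genes of the early pancreatic endocrine cells were examined in whole pancreas of mouse embryos at E12.5 (E for embryonic day), in 3 control samples, which were wild type, and 3 Hox6 null samples, all of the Bl6 strain and each measured on its own array. Hox6 stands for the paralogous homeobox genes Hoxa6, Hoxb6 and Hoxc6, and the labels do not name the mutant alleles or say how many embryos went into a sample. The genes were Gcg, Ins1, Ins2, Sst, Ppy, Ghrl, Iapp, Pyy, Cck and Ttr, and their probe sets (groups of oligonucleotides that together measure one transcript) were those that the platform annotation assigned to a single one of these symbols. Of these 10 genes 9 had such a probe set, among 18193 genes in all, and together they had 15 of the 45037 probe sets tested. Ins1 had none and was not analysed here. Pancreas markers were well above the array medians of 5.97 to 6.02 in every array: the log2 level of Pdx1 was 8.24 to 9.97, that of Ptf1a 7.34 to 8.58 and that of Cpa1 10.05 to 11.70. Hoxb6 lay between 8.78 and 9.36 in control and between 8.25 and 8.91 in null arrays, with an adjusted p of 0.358 (limma). Whether its probe set lies in a disrupted part of the gene is not known, so it does not check the genotype.

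The endocrine cells of the pancreas arise from epithelial progenitors that switch on the transcription factor Neurog3. In the mouse embryo the earliest of them make chiefly glucagon, the product of Gcg, often together with other peptides such as peptide YY, while the large production of insulin cells comes later. Hormone precursors are cut by prohormone convertases and stored in granules until release. In the islet, single hormone genes are typical of alpha (Gcg), beta (Ins1, Ins2, Iapp), delta (Sst), PP (Ppy) and epsilon (Ghrl) cells.

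To show the control regions of these genes, the bases just before the RefSeq transcript start (GRCm38.p6) are printed for 3 genes that were highest in the same null arrays, Gcg, Pyy and Iapp, and for Sst, which was not. Each run has 250 bases, 5′ to 3′ on the gene's own strand. Capitals mark TATAA on the gene's strand within the last 40 bases before the start, CAGATG on either strand (its reverse complement is CATCTG; an E-box sequence of the kind bound by basic helix-loop-helix factors), and TGACGTCA on either strand (the cyclic AMP response element). CAGATG and TGACGTCA can share the bases CA at their ends, which did not occur in the runs printed.
Gcg, chr2:62483654-62483903, strand -: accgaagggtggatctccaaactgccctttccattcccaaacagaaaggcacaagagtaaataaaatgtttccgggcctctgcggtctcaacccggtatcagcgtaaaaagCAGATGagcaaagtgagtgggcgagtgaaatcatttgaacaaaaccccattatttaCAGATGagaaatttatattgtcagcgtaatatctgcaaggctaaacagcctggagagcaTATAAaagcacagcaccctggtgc
Pyy, chr11:102107833-102108082, strand -: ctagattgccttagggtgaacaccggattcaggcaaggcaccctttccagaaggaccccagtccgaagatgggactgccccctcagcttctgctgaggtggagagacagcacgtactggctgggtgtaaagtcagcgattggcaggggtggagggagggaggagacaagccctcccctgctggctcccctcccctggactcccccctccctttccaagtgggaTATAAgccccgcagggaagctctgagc
Iapp, chr6:142298175-142298424, strand +: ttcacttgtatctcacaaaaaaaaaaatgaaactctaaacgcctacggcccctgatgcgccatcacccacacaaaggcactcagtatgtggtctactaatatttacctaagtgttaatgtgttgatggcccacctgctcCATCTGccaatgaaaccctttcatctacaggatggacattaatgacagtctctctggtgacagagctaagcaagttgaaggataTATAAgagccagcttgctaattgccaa
Sst, chr16:23890845-23891094, strand -: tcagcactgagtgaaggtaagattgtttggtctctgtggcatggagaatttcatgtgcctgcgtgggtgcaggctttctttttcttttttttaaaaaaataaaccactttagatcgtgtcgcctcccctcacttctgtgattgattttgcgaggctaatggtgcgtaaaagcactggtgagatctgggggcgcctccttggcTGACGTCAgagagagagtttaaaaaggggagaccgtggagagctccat
Of the 10 genes 8 had a window in the RefSeq table, and Ins2 and Ttr were missing from it. Ghrl had 4 windows and Pyy 2, of which only the one nearest the gene's 5′ end was used. The shares of all windows count every window of a gene. TATAA stood within 40 bases of the start in 4 of the 8 windows (Gcg, Ppy, Iapp and Pyy), against 4.23% of all 32851 windows in the table. CAGATG was found in 4 of the 8 (Gcg, Ins1, Iapp and Cck), against 14.4% of all windows, and TGACGTCA in 1 (Sst), against 1.55%. Ghrl and Cck, also highest in null 1 and null 2, had no TATAA there, and the Ghrl window used had none of these motifs. A match of letters describes the sequence and shows no binding.

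Mean levels of the hormone transcripts were similar or higher in Hox6 null pancreas, and none of the genes passed the test. Ins2, Sst, Ppy and Cck had mean levels of 5.56, 6.20, 5.96 and 6.05, below the median of 6.81 over all genes. Whether these transcripts were detected was not tested. All 15 probe sets had a positive log2 difference (Hox6 null minus control), from 0.07 for Sst to 0.95 for Cck, where 57.3% of all probe sets were positive. Of the 15, 0 passed the threshold of an adjusted p of 0.05 (limma, Benjamini-Hochberg over all probe sets), 4 had an unadjusted p under 0.05, and 0 had every null array above every control array. Over all probe sets 0.00222% passed, 15% had such an unadjusted p, and 12.1% had every null array above every control array. At the level of genes, each represented by its probe set with the highest mean, 0 of 9 passed, where 0.0715% of all genes did and 0.0055% did with a higher level in null arrays. All 9 differences were positive, against 56% of all genes, and the median difference was 0.51 against 0.03 over all genes.

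The 6 arrays did not fall into their genotypes for these genes. In null 1 and null 2 the level exceeded all 3 control arrays for 12 of 15 probe sets (25% of all probe sets) and for 7 of 9 genes (26.8% of all genes). In null 3 it lay within the control range for 12 of 15 probe sets and 7 of 9 genes. The share of all probe sets or genes with that pattern was not counted, so it is not shown to be particular to the hormone genes. The medians of the 9 genes relative to the control mean were 0.75 in null 1, 0.68 in null 2 and 0.11 in null 3. In a whole organ, more cells of a type and more RNA per cell cannot be told apart.

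**Figure D1:**
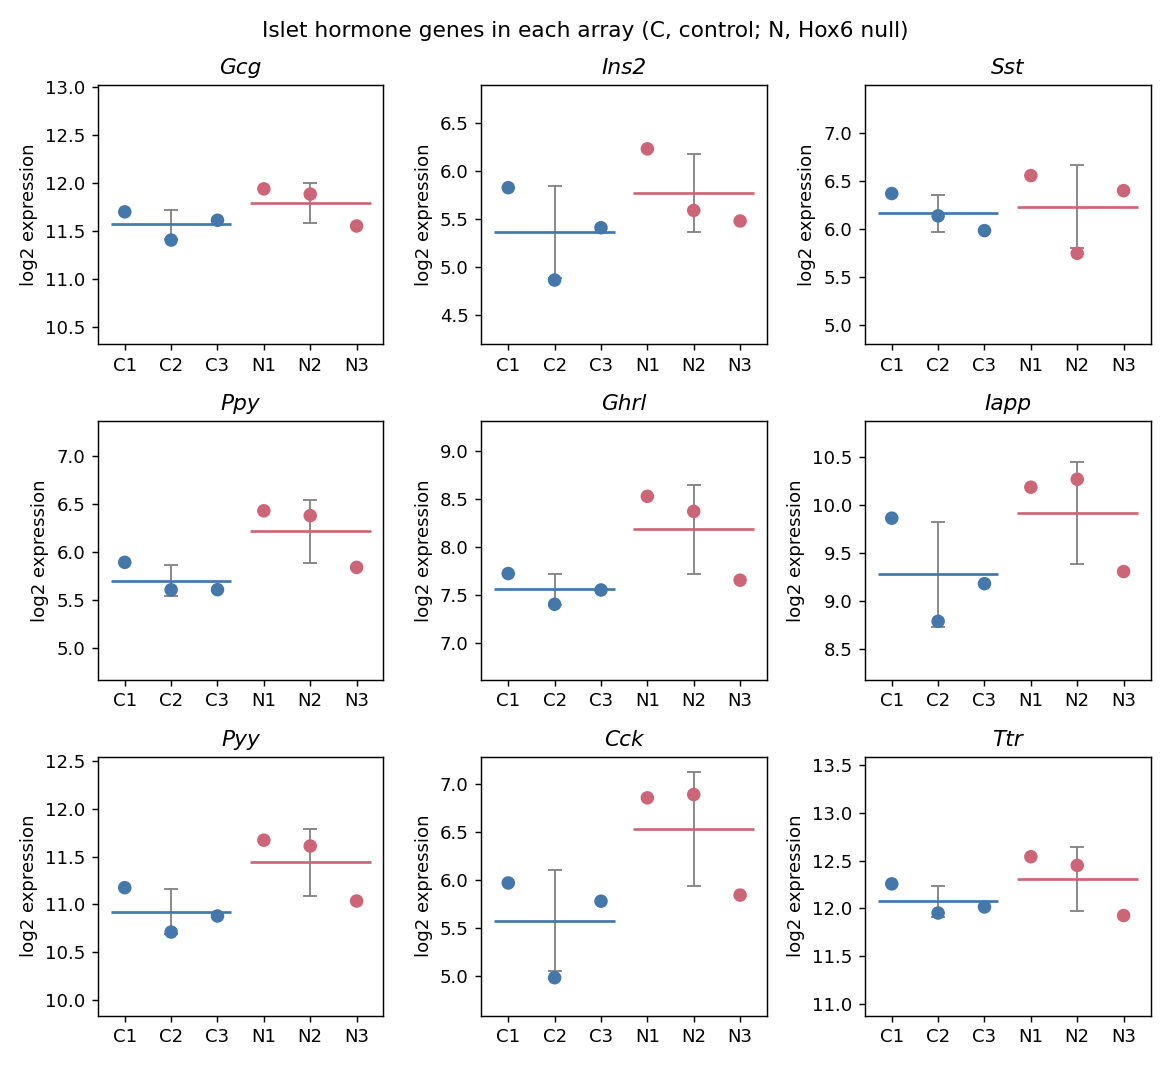
Log2 expression (y axis, the same span in each panel) of the 9 measured genes in control (C1 to C3, blue) and Hox6 null (N1 to N3, red) arrays; coloured lines are group means and grey bars 1 SD (n = 3). N1 and N2 sit above all controls for 7 of the 9 genes, and N3 lies within the control range for 7 (share of all genes not counted).

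Gcg encodes proglucagon, the precursor of glucagon and of glucagon-like peptides. It read 11.70, 11.41 and 11.62 in the control arrays and 11.94, 11.89 and 11.56 in the null arrays. Null 1 and null 2 were above the highest control by 0.24 and 0.18, less than the control range of 0.29, and null 3 lay among the controls. The means were 11.58 ± 0.15 (SD, n = 3) and 11.79 ± 0.21 (SD, n = 3), a difference of 0.22 ± 0.14 (SE) with an adjusted p of 0.488 (limma) and a 95% confidence interval from -0.12 to 0.56. That interval, not adjusted for the number of probe sets, corresponds to 0.923-fold to 1.47-fold. A doubling or a halving of the Gcg signal on this scale was outside it.

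Ttr encodes transthyretin, a carrier of thyroid hormone and of retinol-binding protein that islet cells make, as do liver, yolk sac and choroid plexus. Its probe set with the highest mean read 12.26, 11.95 and 12.02 in control and 12.54, 12.45 and 11.93 in null arrays. Null 1 and null 2 were the highest arrays and null 3 the lowest. The 4 probe sets of Ttr differed by 0.23, 0.28, 0.28 and 0.50 between the group means, with adjusted p from 0.347 to 0.561 (limma), and all 4 put null 1 first and null 2 next. The carrier partner of transthyretin, Rbp4, the gene of retinol-binding protein, had null levels of 11.13, 10.91 and 10.13 against 9.74 to 10.03 in control, which made 0.84 ± 0.25 (SE) and missed the threshold (adjusted p = 0.206, limma, all genes).

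Liver transcripts are given beside Ttr because liver makes it too. They were highest in control 2: of 16 measured liver and yolk sac genes, the median relative to the control mean was 0.93 there, between -0.52 and -0.22 in the other controls, and 0.38, 0.27 and -0.49 in null 1, 2 and 3. Their mean level was 5.94 to 7.25 in the controls and 6.09 to 6.56 in the null arrays, and 0 of them passed. Alb, the albumin gene, chosen here after its values were seen, read 10.60 in control 2 and 6.44 to 8.02 in all other arrays. All 4 Ttr probe sets were lowest in control 2 among the controls. In the null arrays the liver medians and the Ttr probe set with the highest mean (0.46, 0.37 and -0.15 relative to the control mean) had the same order. Single liver genes differed in this. Afp, also chosen after its values were seen, had that order (10.16, 10.07 and 9.29 in null 1, 2 and 3), and Alb did not (6.44, 8.02 and 7.20). Of the 16 genes 9 had a positive and 7 a negative difference. The part of liver transcripts in the Ttr values was not tested.

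Pyy and Ppy encode peptide YY and pancreatic polypeptide, related peptides from neighbouring genes. Pyy read 11.18, 10.71 and 10.88 in control and 11.67, 11.61 and 11.04 in null arrays. Ppy read 5.89, 5.60 and 5.61 in control and 6.43, 6.38 and 5.84 in null arrays, close to the array medians, where changes can be understated. In both genes null 1 and null 2 lay above all controls and null 3 between control 1 and the other controls. Pyy differed by 0.52 ± 0.20 (SE; adjusted p = 0.308) and Ppy by 0.51 ± 0.18 (SE; adjusted p = 0.281) in limma over all probe sets. Their 95% confidence intervals ran from 0.05 to 0.99 and from 0.09 to 0.94, which are not adjusted for the number of probe sets. Of all pairs among the 9 genes these had the most similar profiles, with a root mean square difference of 0.06 (0.0587) between their centred log2 values over the 6 arrays.

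Ghrl encodes ghrelin, the appetite-stimulating peptide of the stomach and of the epsilon cells of the fetal islet. It read 7.72, 7.40 and 7.55 in control and 8.53, 8.37 and 7.65 in null arrays. Null 1 and null 2 exceeded the highest control by 0.80 (0.805) and 0.65, more than the whole control range of 0.32, and null 3 lay inside that range. The difference was 0.62 ± 0.23 (SE), or 1.54-fold, with an adjusted p of 0.289 (limma). Stomach and intestine genes, of which 14 of 18 were positive with a median difference of 0.14 and 0 past the threshold, had medians of 0.29, 0.13 and -0.08 in null 1, 2 and 3. Their mean level was 4.79 to 5.06 in the controls and 5.05 to 5.16 in the null arrays. Their part in the Ghrl values was not tested.

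Cck encodes cholecystokinin, the gut and brain peptide that stimulates pancreatic enzyme secretion. It had the largest mean difference of the 15 probe sets, 0.95 ± 0.35 (SE), with an adjusted p of 0.288 (limma). It read 5.97, 4.98 and 5.78 in control and 6.86, 6.89 and 5.84 in null arrays, so that null 1 and null 2 were 2.43-fold and 2.49-fold above the control mean while null 3 was below control 1. Control 2 was the lowest array by a wide margin. The Cck levels lay around the array medians, where changes can be understated. The receptor gene Cckar, also named after its values were seen, was likewise above all controls in null 1 and null 2, with 7.33, 6.78 and 7.20 in control and 8.30, 8.49 and 7.11 in null arrays (difference 0.87 ± 0.36, SE; adjusted p = 0.287, limma, all genes).

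Among products of the beta cell, Iapp, the gene of islet amyloid polypeptide (amylin), was measured by 4 probe sets. The one with the highest mean read 9.86, 8.79 and 9.18 in control and 10.18, 10.27 and 9.30 in null arrays, a difference of 0.64 ± 0.34 (SE) with an adjusted p of 0.401 (limma). Control 1 stood close to the higher null arrays, and the controls spanned 1.07 log2 units, so the interval from -0.14 to 1.43 was wide. The other probe sets differed by 0.77, 0.29 and 0.12, the last of them with null 3 (4.86) as the lowest array and control 1 (6.24) as the highest; its sign turned to negative without control 2, null 1 or null 2 (-0.14, -0.13 and -0.05). The probe sets thus matched each other in control 1, null 1 and null 2, which were high in all 4, and diverged in null 3.

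**Figure D2:**
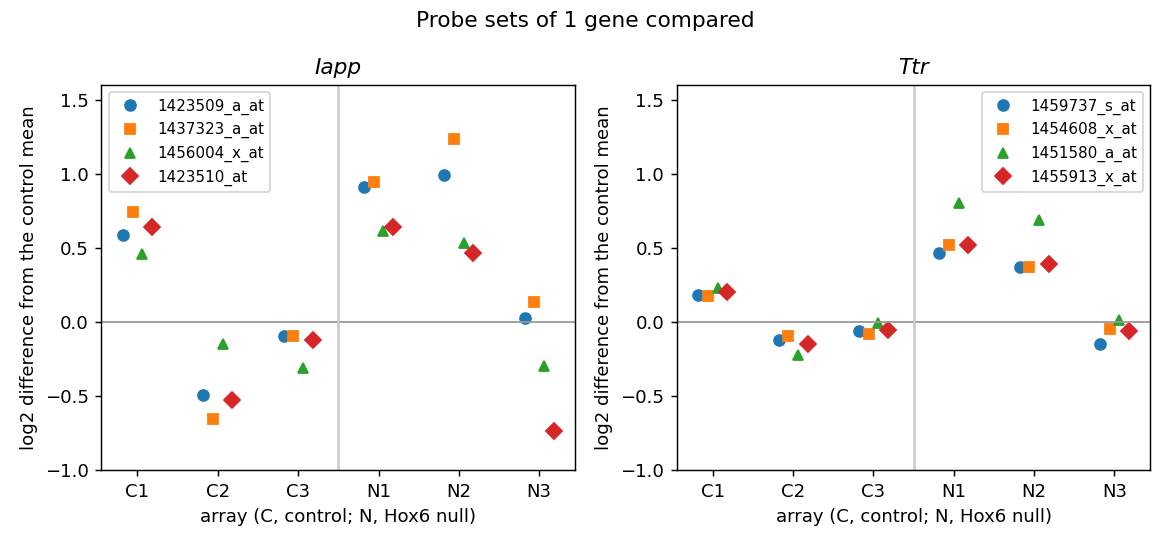
Log2 difference of each array from the control mean (y axis) for the 4 probe sets of Iapp (left) and the 4 of Ttr (right), 1 symbol per probe set, in control (C1 to C3) and Hox6 null (N1 to N3) arrays. In N3 the Ttr probe sets lie between -0.15 and 0.01 (0.0149), while those of Iapp run from 0.14 down to -0.73.

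Ins2, one of the mouse insulin genes, was read by 1 probe set whose suffix (_x_at) marks probes that can also bind related transcripts, so that Ins1 transcript may contribute. It read 5.82, 4.86 and 5.41 in control and 6.23, 5.59 and 5.48 in null arrays, around or below the array medians. Null 1 was the highest array, and null 2 and null 3 lay inside the control range. The difference of 0.40 ± 0.28 (SE) did not pass (adjusted p = 0.519, limma), and its interval from -0.26 to 1.06 included no change and a doubling.

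Sst encodes somatostatin, which restrains the release of other islet hormones. It read 6.37, 6.14 and 5.98 in control and 6.56, 5.74 and 6.40 in null arrays, close to the array medians, where changes can be understated. Null 1 was the highest array and null 2 the lowest, and the groups overlapped throughout. The difference of 0.07 ± 0.22 (SE; adjusted p = 0.895, limma) changed sign when control 3, null 1 or null 3 was left out (-0.02, -0.09 and -0.01). The root mean square difference of its centred profile from those of the other genes ran from 0.33 (Gcg) to 0.72 (Cck).

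**Figure D3:**
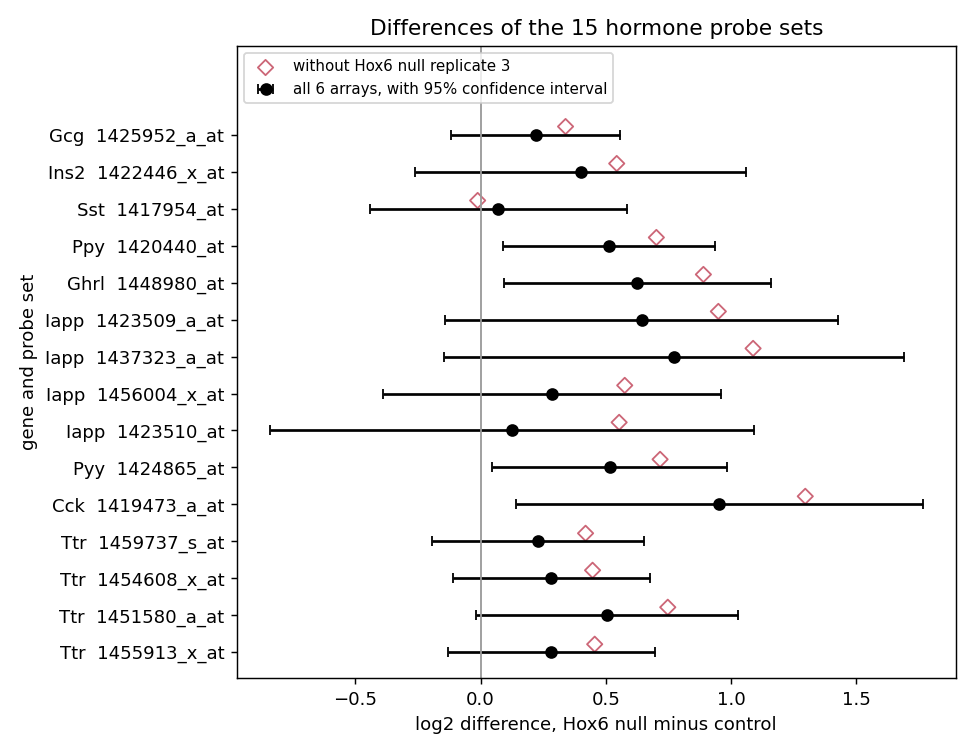
Log2 difference (x axis, Hox6 null minus control) of the 15 probe sets, with the 95% confidence interval over all 6 arrays (black) and the value without null replicate 3 (open diamonds). All points over 6 arrays are above 0, and without null 3 each is larger except that of Sst.

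The size of these differences depended on null 3. Without it the differences of the hormone probe sets ran from -0.01 for Sst to 1.30 for Cck, and 3 of 15 passed (Ghrl at 0.89 ± 0.13, SE, adjusted p = 0.0250; Ppy at 0.70 ± 0.13, adjusted p = 0.0402; 1 probe set of Ttr at 0.75 ± 0.15, adjusted p = 0.0486; limma). At the level of genes 4 of 9 passed without null 3, all higher (Ghrl, Ppy, Pyy and Cck, with adjusted p of 0.0156, 0.0258, 0.0392 and 0.0417). Leaving out this array raised the share of all probe sets called to 4.22%, 2.02% of all probe sets being called higher, and that of genes to 8.44%, 4.42% being called higher. When any of the other arrays was left out, 0 hormone probe sets passed.

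The control arrays had an order of their own. Control 1 was highest, control 3 next and control 2 lowest for 13 of 15 hormone probe sets (16.9% of all probe sets) and for 8 of 9 genes (19% of all genes), the exception among genes being Sst. The same order held for 10 of 19 endocrine transcription factors, 12 of 18 processing and granule genes and 10 of 24 epithelial genes. The medians of the 9 hormone genes relative to the control mean were 0.21, -0.17 and -0.04 in control 1, 2 and 3, a smaller spread than that between null 1 and null 3.

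The medians of the genes that precede and serve hormone production were also lower in null 3 than in null 1 and null 2. Of 19 measured endocrine transcription factors all were positive, with a median difference of 0.61 and medians of 0.86, 0.83 and 0.20 in null 1, 2 and 3; 0 passed over all genes. Myt1, a zinc finger factor of endocrine progenitors, had the smallest p, at 1.19 ± 0.21 (SE; adjusted p = 0.114, limma), and unlike any hormone gene its highest array was null 3 (7.0). Insm1 (0.69), Nkx6-1 (0.92) and Pdx1 (1.08), factors of endocrine differentiation, beta cells and pancreatic progenitors, had adjusted p of 0.186, 0.185 and 0.187. In Myt1, Insm1, Nkx6-1 and Pdx1 null 3 too lay above every control array, which their choice by smallest p favours. Every null array was also above every control array in Mnx1, Nkx2-2, Irx2, Isl1, Rfx3 and Neurod2. In the other measured factors, Neurod1, Pax4 and Pax6 among them, the groups overlapped. The names beyond those of smallest p were chosen after their values were seen. Every null array was above every control array for 0 of the 9 hormone genes and for 12.2% of all genes. Of 18 genes of prohormone processing and secretory granules 16 were positive with a median of 0.50 (0.495) and medians of 0.62, 0.63 and 0.02 in the null arrays; 0 passed. Pcsk1n, which encodes an inhibitor of prohormone convertase, stood at 0.82, the granin Scg3 at 0.69, the granin Chgb at 0.55 and the synaptotagmin Syt13 at 0.58, with adjusted p from 0.212 to 0.272.

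Receptors for the hormones or of related families, carrier genes and other peptide hormones were mixed. Of 23 receptor and carrier genes 17 were positive with a median of 0.16 and 0 passed. The smallest p belonged to Ramp2 (-0.81) and Calcrl (-0.92), partners in a receptor of the calcitonin family that is also a marker of vessels, then Rbp4 and the pancreatic polypeptide receptor gene Npy4r (0.39), with adjusted p of 0.0711, 0.119, 0.206 and 0.242. Of 20 other gut and neural peptide genes 17 were positive with a median of 0.24 and 0 passed. Ucn3 (0.53, at 2.89 to 3.62 in all arrays, far below the array medians), Tph1, the enzyme of serotonin synthesis (0.33), galanin (Gal, 0.71) and secretin (Sct, 0.99) had adjusted p of 0.154, 0.232, 0.252 and 0.285. Tph1 (3.55 to 4.08) and Npy4r (2.95 to 3.69) were likewise far below the array medians.

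Epithelial genes were high in the same null arrays as the hormone genes. Of 24 general epithelial genes 22 were positive, with a median of 0.58 and medians of 0.92, 0.86 and 0.02 in null 1, 2 and 3, and 0 passed; their mean level was 7.82 to 7.93 in the controls, 8.74 in null 1, 8.62 in null 2 and 7.90 in null 3. Cldn4 (1.17), Ehf (0.93), Spint1 (0.80) and Cldn3 (0.96), genes of tight junctions, epithelial transcription and protease inhibition, had the smallest p, with adjusted p from 0.191 to 0.215. With this mean as a covariate the 15 hormone probe sets differed by -0.85 to 0.18, 6 of them positive and 9 negative, with a median of -0.04 (-0.0383) and adjusted p from 0.464 to 0.996 (limma). The median over the 9 hormone genes went from 0.51 to 0.05 (0.0466). The covariate and the genotype share much of their variation here, since both high arrays are null arrays.

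**Figure D4:**
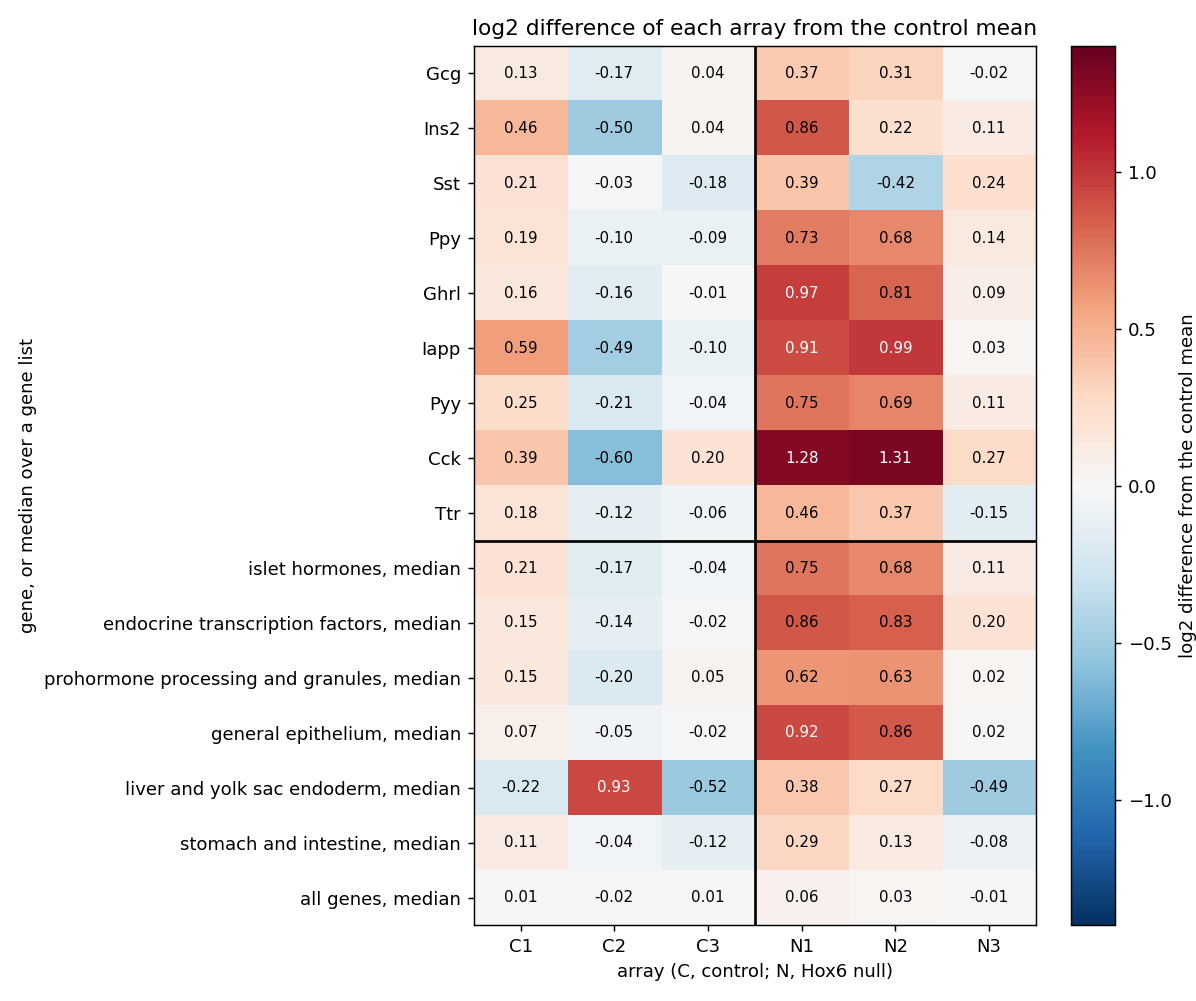
Log2 difference of each array (columns; C, control; N, Hox6 null) from the control mean for the 9 hormone genes (above the line) and for the medians of gene lists (below), with the value in each cell. The medians of hormones, endocrine factors, granule genes and epithelium are high in N1 and N2 and lower in N3 (0.11, 0.20, 0.02 and 0.02), whereas that of liver genes is highest in C2.

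Relative to the epithelial mean of the same array, the hormone genes were not uniform. Gcg lay 3.78, 3.59 and 3.73 above that mean in control and 3.20, 3.26 and 3.65 above it in null arrays. Ttr, by its probe set with the highest mean, lay 4.33, 4.14 and 4.13 above it in control and 3.80, 3.82 and 4.02 in null arrays, with every null array below every control array. Ttr was the 1 gene of 9 with that pattern, where 34.8% of all genes had it. Ghrl lay 0.20, 0.41 and 0.33 below it in control (-0.2029, -0.4131 and -0.3290) and 0.21, 0.25 and 0.25 below it in null arrays (-0.2094, -0.2533 and -0.2498), inside the control range. Relative to the mean of the endocrine transcription factors, Gcg (4.89, 4.89 and 4.98 in control; 4.41, 4.55 and 4.69 in null) and Ttr were the 2 of 9 genes with every null array below every control array, a pattern held by 55.5% of all genes.

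Genes with profiles most like a hormone gene could be named for Ghrl and Iapp, which exceeded the median level and spanned over 1 log2 unit across the arrays. Among 9091 genes the nearest to Ghrl were Tesc, Epcam and Stard10, with root mean square differences of 0.02, 0.05 and 0.06 (0.0165, 0.0507 and 0.0601) over the 6 arrays after centring. Epcam, an epithelial adhesion gene, read 10.51, 10.34 and 10.41 in control and 11.37, 11.16 and 10.48 in null arrays. The nearest to Iapp were Pax6, a transcription factor of islet cells, P2rx1 and Ffar2, at 0.12, 0.14 and 0.15. Pax6 read 7.60, 6.79 and 7.24 in control and 8.00, 8.28 and 7.19 in null arrays, with control 1 and the high null arrays at the top as for Iapp.

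Most genes of vessels, blood cells and mesenchyme had negative differences. Positive differences were found for 0 of 18 endothelial genes (median -0.56, 2 passed, Tek and Clec14a, both lower), 0 of 17 macrophage and leukocyte genes (-0.64, 3 passed, Adgre1, Ctss and Mpo, all lower), 2 of 12 erythroid genes (-0.52, 2 passed, Hemgn and Nfe2, both lower), 1 of 18 mesenchymal genes (-0.37, 0 passed) and 11 of 13 genes of neurons and neural crest (0.29, 0 passed). Of 15 genes of pancreatic progenitors and exocrine cells, 3 of which are also on the list of endocrine factors, 14 were positive (0.75, 0 passed). Over all genes 56% were positive and 0.0715% passed. In null 3 the medians relative to the control mean were -0.266 (endothelium), -0.497 (macrophages and leukocytes), -0.105 (erythroid) and -0.242 (mesenchyme). Each was below the median of every control array, and those of null 1 and null 2 were lower still. For neurons and neural crest (0.0531) and for pancreatic progenitors and exocrine cells (-0.0136) the null 3 median lay within the control range. The share that these changes have in the hormone values was not tested.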

How the data were processed

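The deposited table holds log2 expression values per probe set. The authors' processing, per the submitters' processing notes, used RMA, affy and limma, without versions; RMA subtracts background, equalizes the distributions of the arrays and summarizes the probes of a set. Per the labels' protocols, 10 ng of total RNA was amplified and biotin-labelled. Such values have a floor set by background, so differences at dim probe sets can come out too small. Precision is limited by how few arrays there are.

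Genotype was the single term in limma 3.58.1 (R 4.3.3; lmFit and eBayes), two-sided, with Benjamini-Hochberg adjustment over 45037 probe sets (64 array controls left out) or over 18193 genes, each by its probe set with the highest mean; the threshold was 0.05. Errors of differences are moderated standard errors. The samples are biological replicates per the labels, and each p-value rests on the spread among them. With 3 against 3 arrays an exact permutation test cannot go below 0.1 and was not used. The fits were tested on simulated data. Names come from the platform annotation; 34945 probe sets had 1 symbol, 932 several and 9160 none listed, and 0 symbols needed an update. Pairs of arrays shared 53 to 166 values of 45101.

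The hormone genes, the gene lists and the epithelial covariate were chosen with earlier results of these data known. From other lists the text names genes past the threshold, otherwise up to 4 by smallest p. The nearest genes are the 3 with the smallest root mean square difference, for hormone genes above the median level that span over 1 log2 unit.

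Alternatives covered the replicate block, normalization, a filter on dim probe sets, the variance prior, array weights, an epithelial covariate, the choice of probe set and each array left out.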

Additional observations from a re-analysis of the deposited data

How the results depend on the processing

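The count of hormone probe sets past the threshold was 0 in all alternatives except without null 3 (range 0 to 3 when arrays were left out in turn), and that of hormone genes likewise (0 to 4). The median difference of the hormone genes was 0.51 (0.40 to 0.70 with arrays left out) and 0.05 (0.0466) with the epithelial covariate. In the main fit 0 of the 15 probe sets passed, so none could be lost. Over 192 alternative values of the 15 probe sets, 173 kept direction and side of the threshold, 3 came past it (all without null 3) and 16 changed sign. With the epithelial covariate these were Ins2 (-0.01, -0.0126), Gcg (-0.05, -0.0523), Ttr (-0.04, -0.0383; -0.08, -0.0844; -0.10; -0.19) and Iapp (-0.06, -0.0566; -0.36; -0.85); Sst changed sign with array weights (-0.09, -0.0904), without control 3 (-0.02, -0.0190), without null 1 (-0.09, -0.0903) and without null 3 (-0.01, -0.0117), and the Iapp probe set with the lowest mean without control 2, null 1 or null 2 (-0.14, -0.13 and -0.05, -0.0454). With arrays left out in turn, Sst ran from -0.09 to 0.31 and that Iapp probe set from -0.14 to 0.55. The causes were not tested.

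Counts over the whole table moved more. Probe sets called went from 1 to 0 with repeated quantile normalization, 16 with the filter on dim probe sets, 63 with an intensity trend and robust prior, 41 with array weights and 10 with the epithelial covariate (0 to 1902 with arrays left out). Genes called went from 13 to 1 with repeated quantile normalization, 8 with median centring, 74 with the trend and robust prior, 155 with array weights and 1 with the probe set of largest variance (0 to 1536 with arrays left out). With the replicate block, genes called were 0 and probe sets called 1, with 0 hormone probe sets or genes among them; same-numbered arrays deviated together with correlations of 0.14, 0.00 (0.00487) and 0.06, so they share a number and are not shown to be pairs. Ppy, Ins2 and 1 probe set of Iapp fell below the filter on dim probe sets.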
